A study of Homo sapiens with 6 samples.

Results

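The genes described here encode members of AP-1 and small MAF proteins: FOS, FOSB, FOSL1, FOSL2, JUN, JUNB, JUND, ATF3, MAFF and MAFK. They were found by symbol, and all 10 symbols matched 1 row each of the 37871 genes in the deposited count table. The cells were T24, a long established line from a human carcinoma of the bladder, and RNA was sequenced in 3 libraries given vehicle and 3 given LPS plus nigericin. LPS, from the outer membrane of Gram-negative bacteria, signals through TLR4, and nigericin lets potassium leave the cell, a trigger of the NLRP3 inflammasome. No source used here gives the doses or the duration, and neither agent was given by itself in any labelled group. Whether the libraries of a group are separate cultures is not stated, and p-values then reflect only the spread among these libraries, which may be technical.

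AP-1 is a dimer of basic leucine zipper proteins. JUN proteins pair with each other or with FOS proteins, whereas FOS proteins need a JUN partner to bind DNA, and AP-1 binds the TPA response element (TRE) and the related cyclic AMP response element (CRE). FOS, FOSB, JUN, JUNB and ATF3 are immediate early genes, transcribed within minutes of a growth factor or stress signal through MAP kinases acting on proteins already present. Small MAF proteins such as MAFF and MAFK lack an activation domain. They repress as homodimers and activate when paired with CNC proteins such as NRF2, the product of NFE2L2.

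RefSeq promoter windows (GRCh38.p14, 250 bases before the start and the 50 bases from it) were present for 8 of the 10 genes, in 10 windows. FOSL1 and MAFK have no entry. The windows of the 4 genes with the largest rises and of FOSB, a FOS paralogue that did not pass the test, are shown 5′ to 3′ on the gene's strand. Capitals mark matches, on either strand, to the CRE (TGACGTCA), a CRE-like variant (TGACATCA), the TRE (TGACTCA), the CRE core (TGACG, which also lies inside each CRE), the MEF2 site and the TATA box (TATAAA). ATF3 and MAFF have 2 windows each, and the one holding a CRE or CRE-like match is shown. FOS lies on the plus strand at chr14:75278578-75278877, JUN on the minus strand at chr1:58783998-58784297, ATF3 on the plus strand at chr1:212565157-212565456, MAFF on the plus strand at chr22:38201744-38202043, and FOSB on the plus strand at chr19:45467746-45468045.
FOS: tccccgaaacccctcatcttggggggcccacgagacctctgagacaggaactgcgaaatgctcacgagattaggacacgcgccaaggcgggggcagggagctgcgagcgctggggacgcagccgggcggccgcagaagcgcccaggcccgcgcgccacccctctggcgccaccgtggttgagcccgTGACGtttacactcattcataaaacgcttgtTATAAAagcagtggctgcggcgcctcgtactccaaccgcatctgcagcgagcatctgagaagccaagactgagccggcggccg
JUN: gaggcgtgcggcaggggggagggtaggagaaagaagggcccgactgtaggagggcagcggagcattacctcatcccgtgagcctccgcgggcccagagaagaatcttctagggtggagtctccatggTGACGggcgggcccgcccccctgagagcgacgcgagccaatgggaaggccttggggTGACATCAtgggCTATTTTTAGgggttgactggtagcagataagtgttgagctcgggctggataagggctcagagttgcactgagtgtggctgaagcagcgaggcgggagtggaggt
ATF3: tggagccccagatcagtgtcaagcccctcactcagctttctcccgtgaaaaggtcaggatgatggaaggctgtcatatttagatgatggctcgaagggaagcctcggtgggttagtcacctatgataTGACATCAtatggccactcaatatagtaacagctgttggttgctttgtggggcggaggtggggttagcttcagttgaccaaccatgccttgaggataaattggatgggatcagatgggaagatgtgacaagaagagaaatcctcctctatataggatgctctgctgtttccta
MAFF: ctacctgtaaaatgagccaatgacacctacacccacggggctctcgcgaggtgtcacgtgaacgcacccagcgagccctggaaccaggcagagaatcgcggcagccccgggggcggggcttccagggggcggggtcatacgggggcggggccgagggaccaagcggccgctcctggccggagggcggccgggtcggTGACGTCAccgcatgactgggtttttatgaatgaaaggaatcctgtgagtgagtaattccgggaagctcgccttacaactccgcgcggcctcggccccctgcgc
FOSB: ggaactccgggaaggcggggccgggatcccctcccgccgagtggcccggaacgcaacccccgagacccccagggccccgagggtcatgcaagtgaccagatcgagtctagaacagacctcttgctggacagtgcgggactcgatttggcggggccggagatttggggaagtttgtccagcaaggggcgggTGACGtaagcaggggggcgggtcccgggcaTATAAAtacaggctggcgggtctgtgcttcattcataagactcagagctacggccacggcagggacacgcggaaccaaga

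The window of JUN and the shown window of ATF3 held the same CRE-like letters, TGACATCA. They began 67 and 123 bases before the start (positions -67 and -123). Of all 35116 windows, 2.61% held these letters. The other ATF3 window held only the TATA box letters, at -230, and which start was used here was not tested. In MAFF a full CRE began at -54, and in JUND at -200, against 1.85% of all windows. FOS and FOSB each held a CRE core, beginning at -64 and -60, and a TATA box, at -33 and -30. JUNB also had both, at -137 and -31, and FOSL2 had CRE cores at -66 and -201. The CRE core was present in 24.6% of all windows and the TATA box in 11.5%. JUN also carried the MEF2 site at -55 (0.142% of all windows). FOSL2 held a TRE beginning at base 5 of the transcribed part (4.95% of all windows). No CArG box, the element bound by serum response factor, fell inside any of the 10 windows, and 1.29% of all windows held one. The windows reach only 250 bases before the start, so a CArG box further upstream would not be seen. The 40 bases around the matches in JUND (minus strand, chr19:18281799-18281838) and FOSL2 (plus strand, chr2:28392846-28392885) are shown for comparison with the genes above.
JUND: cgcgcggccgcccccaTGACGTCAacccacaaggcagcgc
FOSL2: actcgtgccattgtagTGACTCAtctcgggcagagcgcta
A match describes these letters only. The motifs are known elements of promoters of this kind and were not chosen blind to these genes, and no binding was measured.

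FOS, JUN, ATF3, MAFF and MAFK rose after LPS plus nigericin, FOSL1 fell, and FOSB, FOSL2, JUNB and JUND did not pass the test. Levels are CPM, counts scaled to the same library total with TMM factors, so a value is a share of a library's RNA and not an amount per cell. Fewer cells expressing a gene and less of its RNA in each cell cannot be told apart. Adjusted p-values come from edgeR's quasi-likelihood test with Benjamini-Hochberg adjustment over 19170 tested genes, at a threshold of 0.05, and all 10 genes were tested. Of all tested genes 55.3% passed, 28.9% higher and 26.4% lower. The 6 of 10 called here are therefore close to the share among all genes, with 5 higher and 1 lower. The libraries of the groups did not overlap for 7 of the 10, 6 of them higher, against 67.0% of all tested genes. The median log2 fold change of the 10 was 0.58, against 0.0016 over all tested genes.

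**Figure D1:**
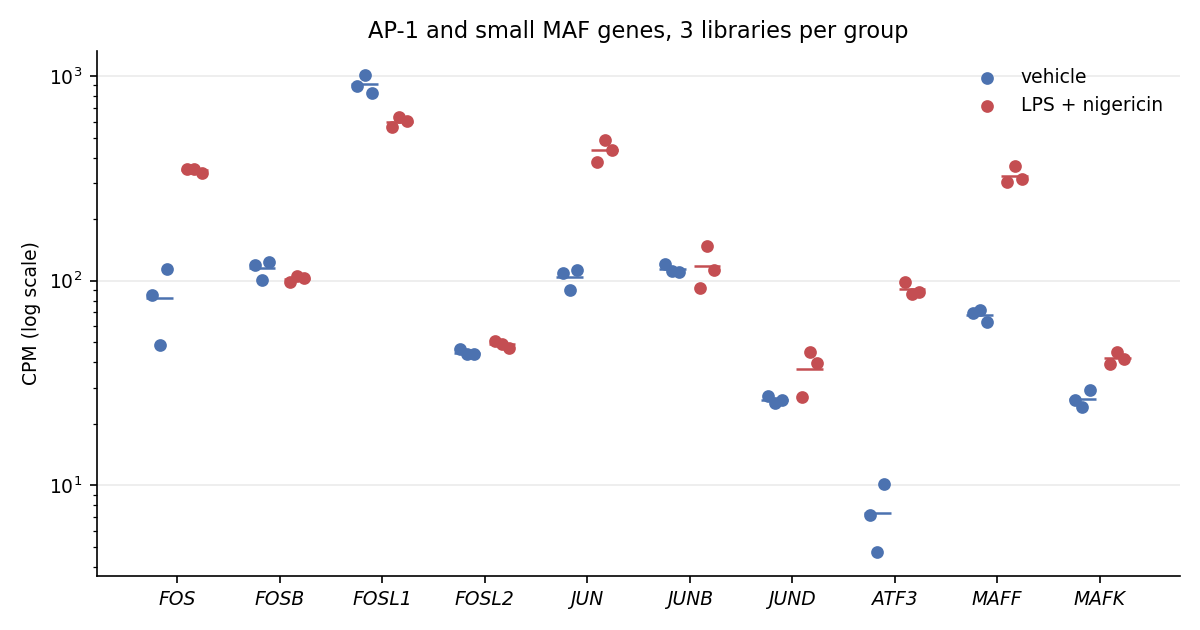
CPM on a log axis for each gene in the 3 vehicle libraries (blue) and the 3 LPS plus nigericin libraries (red), with the group mean as a bar. FOS, JUN, ATF3 and MAFF lie well apart between groups, FOSL1 lies lower after treatment, and FOSB, JUNB and JUND overlap.

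The total counts per library were 66180407 to 89152224. The 10 genes had 361 counts or more in every library, so none was near 0. Counting error was not compared with the spread between libraries. KRT7, KRT8, KRT18 and KRT19, keratins of simple epithelium, were at 139 to 4016 CPM, while EPCAM was at 1.13 to 3.34 CPM and CDH1, the epithelial cadherin, was listed at 0 in 5 libraries and at 0.0714 CPM in the other. The 4 keratins were lower after treatment, and CDH2 was higher. EPCAM did not pass (log2 fold change 0.59, edgeR adjusted p = 0.155). VIM, the vimentin gene, did not pass either (-0.25, edgeR adjusted p = 0.0904), though every treated library lay below every vehicle library. With the offsets described below KRT7 was not called (-0.72, then 0.11, edgeR adjusted p = 0.285), and KRT18 (-1.71, then -1.12) and KRT19 (-1.38, then -0.42) fell by less. VIM passed with those offsets, at -0.51 (edgeR adjusted p = 0.00236). Markers of leukocytes, endothelium and muscle summed to 10.4 to 19.2 CPM in vehicle and 6.54 to 10.1 CPM after treatment over the 12 in the table, with S100A8 and MPO at 0 in every library and PTPRC at no more than 0.0360 CPM. Of the 7 tested, LYZ was higher (0.0671 CPM in vehicle, 0.673 after treatment) and CD68 lower. LYZ lost its call without vehicle library 1 and without treated library 1 (edgeR adjusted p of up to 0.0588), and CD68 went from -1.54 to -0.88 with the offsets. The part of these markers in the results was not tested. GC content moved with the groups. Across tested protein-coding genes, the Spearman correlation of a library's deviation in log2 CPM with GC content was positive in each vehicle library (0.503, 0.609 and 0.194) and negative in each treated one (-0.541, -0.431 and -0.490). GC-rich genes thus read lower after treatment, and 5 of these 10 genes have a transcript GC content of at least 60%, against a median of 49.0% in tested protein-coding genes. The log2 fold changes of the 10 genes are therefore also given from a fit with per-library offsets for GC content and exon length, as are those of genes named from the lists where the offsets end a call, turn the sign or move the value by over 1.5 times. Family shares and levels per kb carry no such correction. Those offsets also remove any effect of treatment that follows either property, and the part of GC content in the changes was not tested. The labels of every library name more than 1 company for extraction and sequencing and do not say whether both groups were prepared together, so a difference in preparation and one in treatment might not be told apart.

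FOS, whose product is the best known partner of JUN in AP-1, stood at 85.3, 48.7 and 114 CPM in vehicle libraries 1 to 3 and at 352, 351 and 337 CPM after treatment. Every treated library was above every vehicle library, and the vehicle values spread over a wider range than the treated ones. The mean rose 4.19-fold, from 82.7 ± 32.7 to 347 ± 8.29 CPM (SD, n = 3; log2 fold change 2.07, SE 0.275, edgeR adjusted p = 6.40e-04). With the GC and length offsets the log2 fold change was 2.42. Vehicle library 2 was the lowest vehicle library for FOS, FOSB, JUN, JUND, ATF3, MAFK and, by very little, FOSL2. It was the highest for FOSL1 and MAFF. Without vehicle library 2 the FOS value was 1.79. The gene (ENSG00000170345) is on the plus strand, chr14:75278774-75282230 (GENCODE 29, GRCh38), with 3 merged exon blocks over 3238 bases.

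The paralogue FOSB did not pass the test. Its libraries were at 120, 101 and 124 CPM in vehicle and 99.1, 105 and 103 CPM after treatment, and the groups overlapped. The log2 fold change was -0.17 (SE 0.114, edgeR adjusted p = 0.250). Without vehicle library 2 FOSB passed, at -0.25 (edgeR adjusted p = 0.0466). Under the offsets it was at 0.28 (edgeR adjusted p = 0.0988), so its sign depended on that choice. FOSB (ENSG00000125740) is on the plus strand, chr19:45467995-45475179.

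FOSL1 encodes FRA1, a FOS protein without the C-terminal activation domain of FOS that accumulates under sustained ERK signalling and is prominent in invasive carcinoma lines. Its libraries were at 891, 1017 and 825 CPM in vehicle and 565, 632 and 603 CPM after treatment. Every treated library lay below every vehicle library. The mean fell from 911 ± 97.6 to 600 ± 33.6 CPM (SD, n = 3; log2 fold change -0.60, SE 0.120, edgeR adjusted p = 0.00377). The direction turned with the GC and length offsets, which gave 0.28 (SE 0.0746, edgeR adjusted p = 0.0144). In the other 13 alternative fits it was called lower, at -0.68 to -0.52. Its pseudogene FOSL1P1 had at most 0.165 CPM in any library. FOSL1 (ENSG00000175592) is on the minus strand, chr11:65892049-65900573, with 4 exon blocks over 1887 bases.

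FOSL2, which encodes FRA2, was at 46.2, 43.6 and 43.6 CPM in vehicle and 50.5, 49.2 and 46.8 CPM after treatment. The treated libraries were all above the vehicle libraries, but by little, and the log2 fold change of 0.14 (SE 0.106) did not pass (edgeR adjusted p = 0.309). FOSL2 passed under the offsets, at 0.23 (edgeR adjusted p = 0.0402). Its 7157 bases of exon in 7 blocks (ENSG00000075426, plus strand, chr2:28392448-28417312) are the most of the 10.

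Among the JUN genes, only JUN itself passed the test with the group as the only term. JUN, the founding AP-1 subunit and the main substrate of the JNK kinases, was at 109, 90.3 and 113 CPM in vehicle and 379, 485 and 437 CPM after treatment. The groups were far apart, with the lowest treated library above 3 times the highest vehicle library. The mean rose 4.17-fold, from 104 ± 12.0 to 434 ± 52.9 CPM (SD, n = 3; log2 fold change 2.06, SE 0.142, edgeR adjusted p = 5.67e-05). Its value under the offsets was 2.64. JUN (ENSG00000177606) is an intronless gene of 3540 bases on the minus strand, chr1:58780788-58784327.

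JUNB, which encodes a weaker activator that can oppose JUN, was at 121, 111 and 110 CPM in vehicle and 92.5, 147 and 113 CPM after treatment. The treated libraries bracketed the vehicle ones. The log2 fold change was 0.04 (SE 0.169, edgeR adjusted p = 0.847). JUNB passed under the offsets at 1.07 (edgeR adjusted p = 6.56e-04). Without treated library 2 the value was -0.16, and with library totals it was -0.02, so no direction can be given. JUNB (ENSG00000171223, plus strand, chr19:12791496-12793315) is a single exon of 1820 bases, 259 of which are shared with HOOK2 on the opposite strand. No source used here gives the strand setting of the counting, so reads in those bases cannot be told apart, and HOOK2 fell from 23.4 ± 2.18 to 16.6 ± 1.66 CPM (SD, n = 3; log2 fold change -0.49, or 0.13 and not called with the offsets).

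JUND, the JUN gene most often expressed without a stimulus, was at 27.4, 25.1 and 26.1 CPM in vehicle and 27.0, 45.0 and 39.5 CPM after treatment. Treated library 1, the shallowest of the 6, lay among the vehicle libraries and the other two lay above them. The log2 fold change of 0.51 (SE 0.190) missed the threshold narrowly (edgeR adjusted p = 0.0519). JUND passed with DESeq2 (0.48, DESeq2 adjusted p = 0.0317), under a filter of 1 CPM in 3 libraries (0.48, edgeR adjusted p = 0.0490), without treated library 1 (0.69, edgeR adjusted p = 0.0110) and with the GC and length offsets (1.66, edgeR adjusted p = 2.08e-04). It is the most GC-rich of the 10, at 69.7%. JUND (ENSG00000130522) is an intronless gene of 1863 bases on the minus strand, chr19:18279760-18281622. For JUN, JUNB and JUND alike, treated library 1 was the lowest and treated library 2 the highest of the treated libraries. The same order was seen for FOSB, FOSL1, MAFF and MAFK, so it was not particular to the JUN genes.

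ATF3, a stress-inducible bZIP factor that represses as a homodimer and can also pair with JUN proteins, had the largest rise of the 10. Its libraries were at 7.18, 4.73 and 10.1 CPM in vehicle and 99.0, 86.1 and 88.2 CPM after treatment. The lowest treated library was more than 8 times the highest vehicle library. The mean rose 12.4-fold, from 7.34 ± 2.69 to 91.1 ± 6.90 CPM (SD, n = 3; log2 fold change 3.63, SE 0.270, edgeR adjusted p = 6.97e-05). Under the offsets the log2 fold change was 3.48. Its GC content of 46.7% is the lowest of the 10. The log2 fold change was 3.39 without vehicle library 2 and 3.92 without vehicle library 3. ATF3 (ENSG00000162772) is on the plus strand, chr1:212565334-212620777, with 5 exon blocks over 4040 bases.

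MAFF, a small MAF gene known to respond to stress and inflammatory cytokines, was at 69.9, 72.02 and 62.8 CPM in vehicle and 304, 362 and 313 CPM after treatment. The groups did not overlap. The mean rose 4.78-fold, from 68.2 ± 4.82 to 326 ± 31.4 CPM (SD, n = 3; log2 fold change 2.26, SE 0.121, edgeR adjusted p = 2.72e-05), the smallest adjusted p of the 10. MAFF was at 2.90 under the offsets. MAFF (ENSG00000185022) is on the plus strand, chr22:38200767-38216511, with 4 exon blocks over 5615 bases.

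MAFK rose less. It was at 26.2, 24.2 and 29.2 CPM in vehicle and 39.1, 44.6 and 41.5 CPM after treatment, with no overlap, and rose 1.58-fold (log2 fold change 0.66, SE 0.128, edgeR adjusted p = 0.00353). The offsets gave 1.44. MAFK (ENSG00000198517, plus strand, chr7:1530714-1543043) shares 809 of its 4458 exon bases with TMEM184A on the opposite strand, which stood at 4.26 ± 1.87 CPM in vehicle and 2.06 ± 0.180 CPM after treatment (SD, n = 3), so reads in those bases cannot be told apart.

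**Figure D2:**
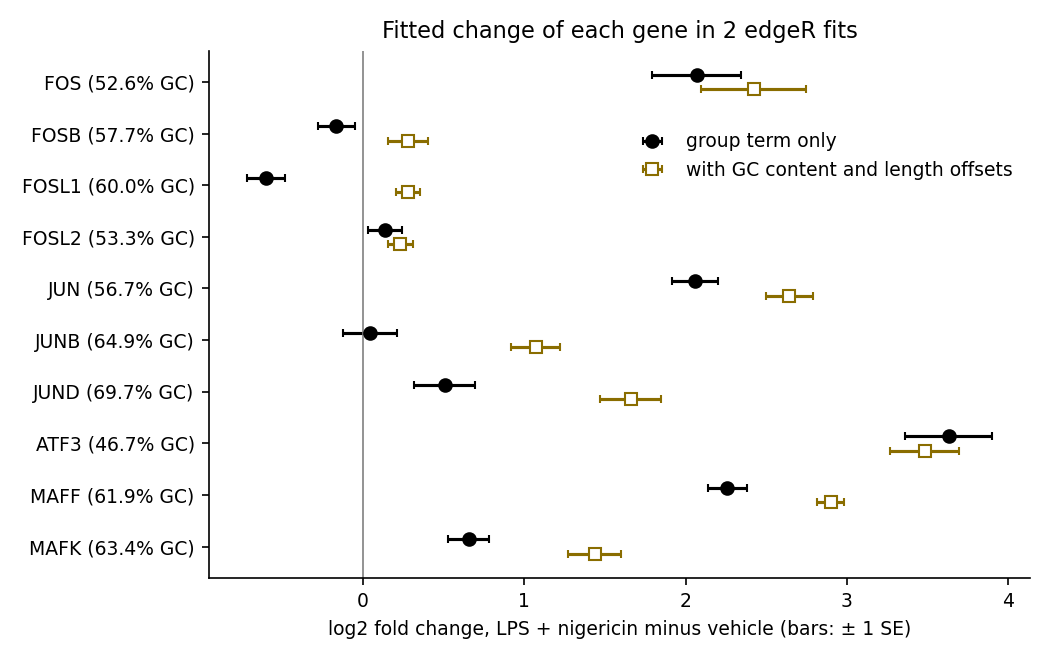
Log2 fold change of each gene (LPS plus nigericin minus vehicle, ± 1 SE) in the fit with the group as the only term (filled circles) and in the fit with GC content and length offsets (open squares), with transcript GC content in the labels. FOS, JUN, ATF3 and MAFF lie above 2 in both fits, while FOSL1 moves from -0.60 to 0.28 and JUNB, JUND and MAFK lie higher with the offsets.

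With the GC and length offsets 9 of the 10 passed, all higher, and FOSB did not. That fit called 49.7% of all tested genes in either direction, and 25.5% of all tested genes were called higher. The median log2 fold change of the 10 was then 1.55, against 0.0025 over all tested genes. FOS, JUN, ATF3, MAFF and MAFK were called higher in all 14 alternative fits, with lowest values of 1.79, 1.96, 3.39, 2.17 and 0.59.

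Levels of different genes were compared as CPM per kb of merged exon. In vehicle, FOSL1 led with 483 ± 51.7 CPM per kb (SD, n = 3), followed by JUNB at 62.7 ± 3.46, JUN at 29.4 ± 3.40, FOS at 25.5 ± 10.1, FOSB at 20.7 ± 2.20, JUND at 14.1 ± 0.610, MAFF at 12.2 ± 0.859, FOSL2 at 6.21 ± 0.206, MAFK at 5.95 ± 0.574 and ATF3 at 1.82 ± 0.665 CPM per kb. The libraries of JUN and FOS, of FOS and FOSB, and of FOSL2 and MAFK overlapped, and those of the other neighbours in that order did not. After treatment, FOSL1 still led with 318 ± 17.8 CPM per kb, but JUN at 123 ± 15.0 and FOS at 107 ± 2.56 came next, ahead of JUNB at 64.6 ± 15.2 and MAFF at 58.1 ± 5.59. ATF3 moved from last place to the sixth, at 22.6 ± 1.71 CPM per kb, with libraries that overlapped those of JUND at 19.96 ± 4.96. JUND overlapped FOSB at 18.4 ± 0.551, and MAFK at 9.37 ± 0.619 and FOSL2 at 6.83 ± 0.260 were the lowest. JUN and FOS also overlapped each other, as did JUNB and MAFF.

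The make-up of each family was compared between the groups. FOSL1 supplied 89.7%, 93.2% and 87.3% of the length-scaled FOS family counts (FOS, FOSB, FOSL1 and FOSL2) in vehicle libraries 1 to 3 and 69.1%, 71.4% and 71.2% after treatment. FOS supplied 5.01%, 2.60% and 7.03% in vehicle and 25.1%, 23.1% and 23.2% after treatment. These shares did not overlap between groups (exact two-sided permutation test, p = 0.1 for each, the smallest that 3 against 3 libraries allow). FOSB supplied 3.90% ± 0.678 in vehicle and 4.10% ± 0.0555 after treatment (SD, n = 3; exact permutation p = 0.8). The family's summed level was 535 ± 39.5 CPM per kb in vehicle and 450 ± 18.1 after treatment (SD, n = 3; exact permutation p = 0.1). FOSL1 made up most of this sum, and its own direction turned with the GC and length offsets (log2 fold change -0.60, then 0.28). The sum was not computed with those offsets, so its lower level after treatment holds only without them.

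In the JUN family, JUN supplied 27.4%, 25.5% and 30.0% of the length-scaled counts in vehicle and 62.1%, 56.6% and 59.7% after treatment, while JUNB went from 59.5%, 61.0% and 56.8% to 29.5%, 33.4% and 30.0%. The leading JUN gene by share was thus JUNB in every vehicle library and JUN in every treated library. JUND supplied 13.3% ± 0.197 in vehicle and 9.55% ± 1.00 after treatment (SD, n = 3). The exact permutation p was 0.1 for each of the 3 shares. The family's summed level went from 106 ± 6.04 to 207 ± 34.8 CPM per kb (SD, n = 3; exact permutation p = 0.1).

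Among the small MAF genes, MAFF supplied 42.9% ± 3.85 of the length-scaled counts in vehicle and 52.4% ± 2.14 after treatment (exact permutation p = 0.1, n = 3). MAFK went from 21.0% ± 2.11 to 8.47% ± 0.454 (exact permutation p = 0.1, n = 3). MAFG, the third gene of the family, supplied 36.1% ± 3.09 in vehicle and 39.1% ± 2.48 after treatment, with overlapping libraries (exact permutation p = 0.4, n = 3). The summed level of the 3 genes was 28.4 ± 1.45 CPM per kb in vehicle and 111 ± 8.54 after treatment (exact permutation p = 0.1, n = 3). Of 10 shares tested in the 3 families, 8 had an exact permutation p of 0.1, and with 3 against 3 libraries none could reach 0.05, before or after adjustment. A p of 0.1 here means only that the libraries of the groups did not overlap. By CPM, a different measure, 67.0% of all tested genes did not overlap either, so 8 of 10 is not far from that share. Counts are shared within a family, so the shares of its members are not independent, and GC content differs among members.

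**Figure D3:**
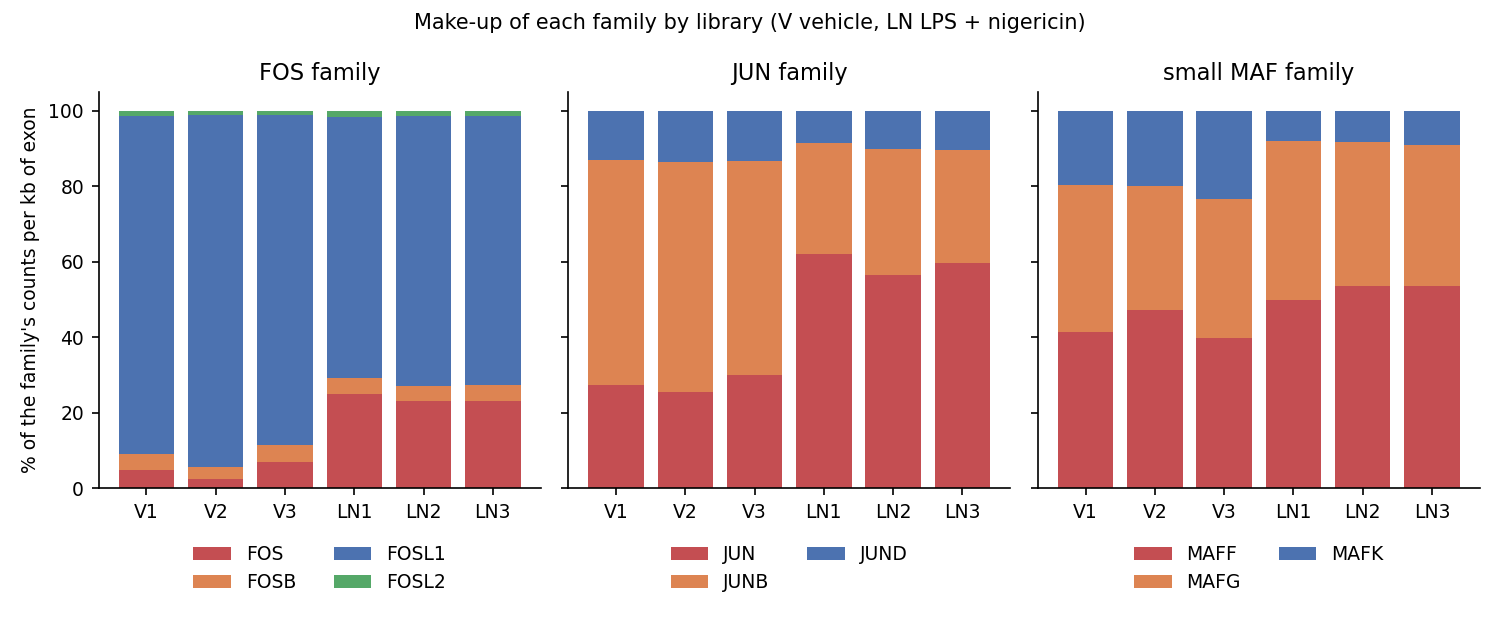
Percentage of each family's counts per kb of exon supplied by each gene, in vehicle libraries 1 to 3 (V) and LPS plus nigericin libraries 1 to 3 (LN). FOSL1 dominates the FOS family in all libraries with FOS gaining after treatment, and JUNB and JUN exchange places in the JUN family.

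Genes around these factors were read from lists drawn up with earlier results of these data known. Among 21 other AP-1 family and related bZIP genes, 8 rose, 7 fell and 6 did not pass (median log2 fold change -0.23, against 0.0016 over all tested genes). This is 71.4% called, against 55.3% of all tested genes, 28.9% higher and 26.4% lower. ATF4, the factor of the integrated stress response, rose from 542 ± 58.0 to 1247 ± 100.5 CPM (log2 fold change 1.204), ATF1 from 7.74 ± 1.96 to 28.2 ± 2.82 CPM (1.86) and CREB5 from 2.58 ± 0.505 to 9.16 ± 0.589 CPM (1.83; SD, n = 3). JDP2, which encodes a repressor that pairs with JUN, fell from 27.3 ± 3.76 to 13.3 ± 1.43 CPM (-1.04, edgeR adjusted p = 0.00114). DDIT3, which encodes the stress factor CHOP, fell from 13.9 ± 3.00 to 6.05 ± 1.46 CPM (-1.20, edgeR adjusted p = 0.00375). BATF3 was at 1.31 ± 0.267 and 0.660 ± 0.419 CPM (-0.98, edgeR adjusted p = 0.0962). It passed without treated library 3 (-1.64, edgeR adjusted p = 0.0127). Under the offsets 8 of the list were higher and 5 lower, CREB5 was at 0.76 and ATF4 at 1.90.

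Of 9 tested large MAF, small MAF and CNC genes, 4 rose (MAFG, BACH1, NFE2L2 and NFE2L3), 0 fell and 5 did not pass (median log2 fold change 1.66, against 0.0016 over all tested genes). The share called, 44.4%, was below the 55.3% of all tested genes. MAFG rose from 53.5 ± 7.20 to 226 ± 20.8 CPM (log2 fold change 2.08, edgeR adjusted p = 5.24e-05). NFE2L2, which encodes NRF2, rose from 27.4 ± 9.56 to 94.1 ± 5.05 CPM (1.78), and BACH1, which encodes a repressor that competes with NRF2 for small MAF partners, from 4.33 ± 1.04 to 13.7 ± 1.03 CPM (1.66; SD, n = 3). NFE2L1 did not pass, at 276 ± 31.4 CPM in vehicle and 311 ± 21.5 after treatment (log2 fold change 0.17, edgeR adjusted p = 0.269). Under the offsets 7 of the 9 were higher, BACH1 was at 0.72, and NFE2L1 passed at 0.46 (edgeR adjusted p = 0.0163). MAFA and NRL also gained a call there (3.85 and 0.86, edgeR adjusted p = 0.0362 and 0.00870). MAFA was near 0, at 0.0402 CPM in vehicle and 0.308 after treatment. NRL was at 2.36 and 2.30 CPM, with overlapping groups.

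Of 15 genes listed as targets of small MAF and CNC dimers, 6 were higher, 5 lower and 4 not called (median -0.06), so that 73.3% were called against 55.3% of all tested genes. GCLC, GCLM, TXNRD1, SLC7A11, ME1 and MAFG itself rose, among them GCLC, the catalytic subunit of glutathione synthesis, from 6.13 ± 1.09 to 17.1 ± 2.23 CPM (1.48), and the cystine transporter gene SLC7A11 from 17.3 ± 4.83 to 49.2 ± 3.16 CPM (1.51; SD, n = 3). All of these but MAFG were smaller under the offsets, at 0.81 for GCLC, 0.44 for TXNRD1 and 0.44 for SLC7A11, and GCLM (1.06) and ME1 (0.74) lost their call, at 0.26 (edgeR adjusted p = 0.0576) and 0.17 (edgeR adjusted p = 0.228). NQO1 (-0.39), FTL (-0.53), PIR (-0.76) and OSGIN1 (-1.30) were among those that fell. The offsets gave 0.11 for FTL (edgeR adjusted p = 0.238) and -0.38 for OSGIN1 (edgeR adjusted p = 0.0913), which were then not called, and -0.43 for PIR, which was. HMOX1, the haem oxygenase gene that both BACH1 and AP-1 control, was at 50.2 ± 11.1 and 48.1 ± 6.48 CPM (-0.06, edgeR adjusted p = 0.804). Under the offsets it passed at 0.67 (edgeR adjusted p = 0.0343). With the offsets 7 of the list were higher and 2 lower. Without vehicle library 1, treated library 1 or treated library 3, the number lower was 3.

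Of 26 MAP kinase genes upstream, 10 were higher, 8 lower and 8 not called (median 0.31). The share called, 69.2%, stands beside 55.3% of all tested genes. MAP3K4 rose from 17.6 ± 2.03 to 37.0 ± 3.76 CPM (log2 fold change 1.07), MAP3K5, which encodes ASK1, from 4.06 ± 1.14 to 12.3 ± 0.995 CPM (1.60), and MAPK7, which encodes ERK5, fell from 66.2 ± 5.09 to 34.7 ± 4.28 CPM (-0.93; SD, n = 3). MAPK8, which encodes JNK1, rose from 10.8 ± 1.35 to 20.7 ± 2.72 CPM (0.94, edgeR adjusted p = 0.00209), but was at -0.16 with the GC and length offsets (edgeR adjusted p = 0.336). MAP3K8, the kinase TPL2, did not pass, at 1.65 ± 0.415 CPM in vehicle and 1.26 ± 0.307 after treatment (log2 fold change -0.39, edgeR adjusted p = 0.299). MAP3K4 was at 0.69 and MAPK7 at -0.42 under the offsets, which called 7 of the list higher and 5 lower. These are RNA levels, and kinase activity was not measured.

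Serum response factor binds the CArG box of immediate early genes. Of 6 tested genes of this factor and its partners, 4 rose and 0 fell (66.7% called, median 0.69). Of all tested genes 55.3% were called, 28.9% higher and 26.4% lower, and the median was 0.0016. SRF rose from 56.6 ± 5.93 to 78.1 ± 2.76 CPM (0.46, or 1.199 with the GC and length offsets), ELK4 from 9.40 ± 3.21 to 20.4 ± 1.70 CPM (1.12), MRTFB from 8.17 ± 2.53 to 15.4 ± 0.507 CPM (0.91), and ELK3 by 0.95 on the log2 scale, or 0.45 with the offsets (SD, n = 3). ELK4 and MRTFB did not pass with the offsets, at 0.02 and 0.05 (edgeR adjusted p = 0.890 and 0.792). ELK1 and MRTFA, not called without them, passed at 0.85 and 0.69 (edgeR adjusted p = 1.70e-04 and 2.44e-04). With the offsets 4 of this list were thus higher and 0 lower. Of 14 genes of AP-1 protein modification and turnover, 8 rose, RPS6KA1 and APEX1 fell, and 4 did not pass (median 0.57). The share called was 71.4%, against the 55.3% of all tested genes. FBXW7, the ubiquitin ligase subunit that marks JUN for degradation, rose from 3.75 ± 0.456 to 10.8 ± 1.03 CPM (1.53, or 0.88 with the offsets), and SIRT1, a deacetylase, from 8.43 ± 3.34 to 33.1 ± 5.27 CPM (1.97). RPS6KA1, the RSK1 kinase gene, fell from 82.0 ± 15.2 to 39.5 ± 1.88 CPM (-1.05; SD, n = 3). SIRT1 was at 1.36 and RPS6KA1 at -0.66 under the offsets, and APEX1 (-0.40) lost its call at -0.14 (edgeR adjusted p = 0.236). With the offsets 6 were higher and 4 lower, and without vehicle library 1, treated library 1 or treated library 3 only 1 was lower.

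Of 32 tested genes commonly cited as AP-1 targets, 20 rose, CCNA2, TGFB1 and CDKN2A fell, and 9 did not pass (median log2 fold change 0.80, against 0.0016 over all tested genes). In all 71.9% were called, against 55.3% of all tested genes. HBEGF, an EGF receptor ligand, rose from 30.6 ± 1.49 to 186 ± 8.22 CPM (2.60), IL11 from 21.3 ± 1.70 to 126 ± 13.9 CPM (2.56) and GADD45B, a stress gene, from 26.9 ± 3.88 to 208 ± 25.8 CPM (2.95; SD, n = 3). MMP1, the interstitial collagenase gene, a textbook TRE target, rose from 3.16 ± 0.572 to 6.62 ± 0.685 CPM (1.06), and PLAU, urokinase, from 230 ± 6.58 to 352 ± 27.1 CPM (0.61, or 1.11 with the offsets). PLAUR, its receptor, was at 168 ± 14.3 and 173 ± 15.0 CPM (0.04, edgeR adjusted p = 0.794). Under the offsets it passed at 0.49 (edgeR adjusted p = 9.61e-04). With the offsets 26 were higher and 2 lower, and neither TGFB1 (-0.80, then 0.15) nor CDKN2A (-0.87, then -0.12, edgeR adjusted p = 0.324) was called. Many of these genes answer to other factors as well, and the list says nothing of what controlled them here.

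**Figure D4:**
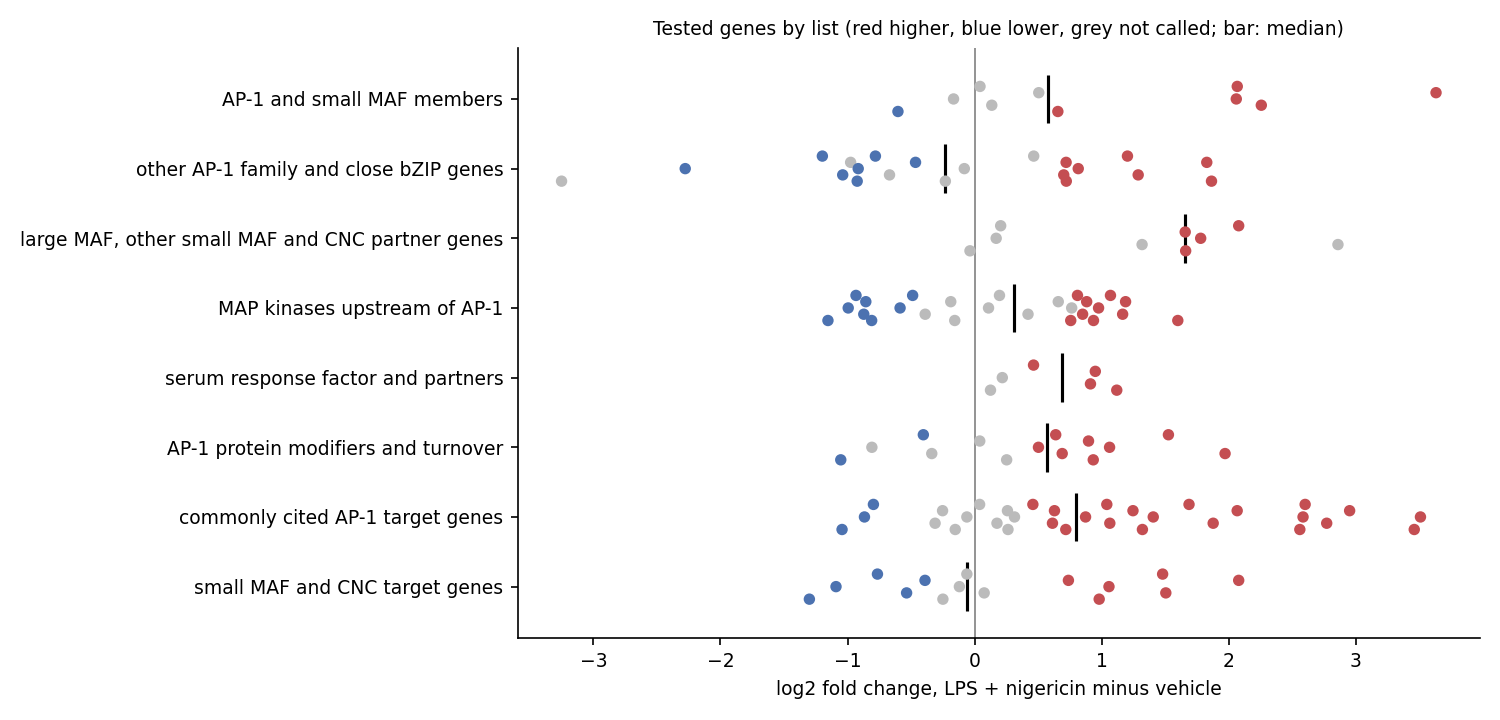
Log2 fold change (LPS plus nigericin minus vehicle) of each tested gene by list, with red for higher, blue for lower and grey for not called at an edgeR adjusted p of 0.05, and a black bar at the list median. GADD45B, at 2.95, is among the highest AP-1 targets, and the MAP kinase and small MAF target lists lie on both sides of 0.

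The genes nearest to ATF3 in pattern were CXCL8, KDM6B and CXCL3. Nearness was the Euclidean distance over the 6 libraries of log2(CPM + 0.5) minus the gene's own vehicle mean, among 10482 genes averaging 5 CPM or more, and the distances were 0.191, 0.297 and 0.412. CXCL8, the neutrophil chemokine gene, went from a mean of 67.9 to 748 CPM and KDM6B, a histone H3 demethylase gene, from 9.70 to 115 CPM. Nearest to FOSL1 were KCTD11, PRKACA, the catalytic subunit gene of protein kinase A, and UBTF, a factor of ribosomal RNA transcription, at distances of 0.0684, 0.0732 and 0.0832. Their log2 fold changes were -0.59, -0.59 and -0.61. The order describes 6 libraries and is dominated by the difference between the groups.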

How the data were processed

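Raw counts per Ensembl gene were deposited by the authors, 1 column per library, per the file headers. Per the submitters' processing notes the build was hg38, and the aligner, counter, annotation release and strand setting are not given in any source used here. Columns were matched to samples by library name, and 0 columns belonged to no sample.

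Counts were filtered with filterByExpr (19170 genes tested), scaled with TMM factors and tested with edgeR 4.0.16 (R 4.3.3, robust quasi-likelihood F test, group as the only term, Benjamini-Hochberg at 0.05). The SE of a log2 fold change was its size divided by the square root of F. The offsets were loess fits (span 0.3) for GC content and then exon length in each library, from GENCODE 29, which covered 97.1% of tested genes. DESeq2 1.42.0 and limma 3.58.1 (voom) were alternatives, with RLE factors, library totals, other filters, the replicate number as a block, and leaving out each library. Scripts were tested on simulated data. The members, lists and the GC and length offsets were chosen with earlier results of these data known. Named genes were the 10 members, the 3 genes with the smallest p among those passing in each list, a set of partners, kinases and targets listed with the members, and for likeness the 3 nearest to the largest rise and fall. HOOK2, TMEM184A and FOSL1P1 were named for overlap or sequence likeness, and the genes spelled out for a small count of calls (such as ELK3, ME1 and CDKN2A) were chosen after their values were seen.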

Additional observations from a re-analysis of the deposited data

How the results depend on the processing

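With the GC and length offsets, 9 members were called higher and 0 lower, FOSB was at 0.28, FOSL1 at 0.28, FOSL2 at 0.23, JUNB at 1.07 and JUND at 1.66 on the log2 scale, HMOX1 was at 0.67 and MAPK8 at -0.16, and the cause was not tested. With library totals JUNB was at -0.0161 and PLAUR at -0.0119. JUND was at 0.48 and passed with DESeq2 and with the filter of 1 CPM in 3 libraries. Leaving out each library gave 1 to 2 members called lower and log2 fold changes of -0.25 to -0.12 for FOSB, -0.16 to 0.19 for JUNB, 0.34 to 0.69 for JUND, -0.23 to 0.065 for HMOX1 and -0.0369 to 0.10 for PLAUR. With plain counts in place of length-scaled counts, the share after treatment minus that in vehicle was 24.3 percentage points for FOS, -0.68 for FOSB, -24.3 for FOSL1 and 0.59 for FOSL2, where length scaling gave 18.9, 0.20, -19.5 and 0.35. Same-numbered libraries did not deviate together (correlations -0.0231, 0.0956 and -0.0236), so the numbers were not taken as pairs, and with the replicate block 5 members were higher and 1 lower, as without it, and 5513 genes higher and 4895 lower in all.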
